A study of Macaca mulatta with 81 samples.

Results

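SOX4, MAML3, AUTS2, SELENOP and METTL14 are 5 of the 14132 genes named on the array, chosen by the low log2 signal of their brightest probe sets in T cells of rhesus macaques after transplant. They were followed through every probe set that the array's gene table gives to 1 of these symbols alone. There were 12 such probe sets among the 52865 of the array: 4 for SOX4, 3 for METTL14, 2 each for MAML3 and SELENOP, and 1 for AUTS2. The data do not bear out a loss after every transplant for all 5 genes. By brightest probe set, SOX4, MAML3 and AUTS2 averaged below the healthy controls in all 15 transplant groups, SELENOP in 14 and METTL14 in 12. The brightest METTL14 probe set averaged above the controls in both autologous groups. Its other probe sets averaged below the controls in 11 and 13 transplant groups. The 5 genes are therefore called here by their symbols.

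SOX4 is a transcription factor of the HMG box family that acts early in lymphocyte development and downstream of TGF-beta. MAML3 is a Mastermind coactivator, which binds the cut Notch receptor and RBPJ on DNA and switches on Notch target genes. AUTS2 is known mostly from neurons, as a subunit of a variant Polycomb repressive complex that activates transcription. SELENOP is a secreted selenoprotein that carries selenium in plasma, made mainly by liver and also by macrophages. METTL14 is the partner of METTL3 in the enzyme that writes N6-methyladenosine (m6A) into messenger RNA.

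The study measured CD3 T cells sorted from blood on 81 arrays from 50 animals: 47 arrays of 27 animals after hematopoietic cell transplant and 34 of healthy controls without one, with 11 animals in both sets. Autologous recipients, given their own cells and no prophylaxis, were sampled at day 14 (Auto.D14, n = 3) and day 36 (Auto.D36, n = 3). Allogeneic recipients, which can develop graft-versus-host disease, received no prophylaxis (NoRx.F, n = 4), Siro (Siro.F, n = 4), Tac-Mtx (Tac.Mtx.D14, n = 3; D30, n = 2; F, n = 3), Bela (Bela.F, n = 3), Bela-Siro (3 at D14, 3 at D30, 2 at F), FR104 (FR104.D14 and FR104.F, n = 3 each) or FR104-Siro (FR104.Siro.D14 and FR104.Siro.F, n = 4 each). F marks a final sample, whose day the labels do not give, and the 4 FR104.Siro.D14 arrays come from days 14, 14, 22 and 34. The labels do not spell out the agents; FR104 is known as an antibody fragment that blocks CD28, and Siro probably stands for sirolimus, which inhibits mTOR.

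Arrays had medians between 5.12 and 5.31 on the log2 scale. Of 10 T cell genes, 7 lay above the 95th percentile of healthy arrays, led by ZAP70 at 12.54 and CD8A at 12.34, while CD6 at 7.56, CD28 at 6.82 and CD4 at 6.73 lay at the 78.4th, 71.2nd and 70.4th. Markers of other cells also differed in level: the mean of 12 monocyte and myeloid markers stood above the healthy mean in all 15 transplant groups, by 0.14 in Auto.D14 to 1.76 in Bela.Siro.F. Single markers did not all go this way. In Auto.D14 S100A8 averaged 8.07 against 6.84 in healthy controls, but CD14 5.78 against 6.46. Signals of the added spike-in transcripts exceeded the healthy maximum of 11.53 in 8 transplant arrays, among them all 4 of FR104.Siro.D14. The 3' minus 5' signal of actin ran from 0.430 to 3.83 in healthy controls. It lay wholly below that range in Auto.D36 (-0.34 to -0.30), FR104.D14 (0.017 to 0.373) and FR104.F (0.095 to 0.425). Auto.D14, FR104.Siro.D14 and FR104.Siro.F reached below it in part, down to 0.29, 0.23 and 0.061. In RNA of a whole sample, fewer cells of a type and less RNA per cell cannot be told apart. Batch and treatment overlap: NoRx.F and Siro.F lie in batches 1 and 2, the Tac-Mtx, Bela and Bela-Siro groups in batch 3, and the autologous, FR104 and FR104-Siro groups in batch 4, so only the healthy controls join them.

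Each gene's brightest probe set, by its mean over all arrays, is called its leading one. SOX4 had 3 expressed probe sets, which moved together, with r between 0.95 and 0.97 over 34 healthy animals and between 0.91 and 0.93 over all 81 arrays. The other SOX4 probe set averaged 2.84 and stood above the filter value of 4.65 in 0 arrays. Both SELENOP probe sets had r = 0.87 in healthy animals, while the 2 of MAML3 had r = 0.19 there and 0.54 over all arrays. The second MAML3 probe set lay near the floor, with a mean of 5.08 and a range from 4.64 to 5.69. So 11 of the 12 probe sets entered the tests.

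METTL14 was the exception. Its leading probe set was among the brightest on the array, with a mean of 11.34 at the 98.8th percentile, and ranged from 6.96 to 14.09. The other METTL14 probe sets averaged 8.06 and 7.92 and ranged from 7.32 to 8.58 and from 7.35 to 8.39. They had r = 0.65 with each other in healthy animals, against 0.28 and 0.34 with the leading one. Which of the 3 follows the METTL14 transcript was not tested, and values of the leading one below are those of that probe set.

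The members were chosen for low values after transplant, so the following levels and their distance from healthy controls are a description with no test. Means are given with the SD between arrays.

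SOX4 averaged 4.81 ± 0.45 in Auto.D14 and 4.68 ± 0.35 in Auto.D36, against 8.37 ± 1.58 in healthy controls (n = 34), which is 11.8-fold lower at day 14. Arrays read 5.31, 4.42 and 4.70 in Auto.D14 and 5.08, 4.46 and 4.51 in Auto.D36, while healthy controls ran from 4.43 over a median of 8.41 to 10.90. All 6 autologous arrays thus lay at the low end of a wide healthy range, 1 of them just below it, and only 1 healthy array was as low. The autologous arrays at 4.42, 4.46 and 4.51 lay below the filter value of 4.65, so the fold is measured from near the floor. NoRx.F arrays came next, at 5.10, 4.96, 4.78 and 6.22. Bela.F stayed nearest to the controls with 8.13, 8.80 and 7.04, a mean of 7.99. Of the 47 transplant arrays, 43 read below the healthy median, but only 2 below the healthy minimum.

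MAML3 was lowest in the same groups. It averaged 5.03 ± 0.57 in Auto.D14, 4.69 ± 0.83 in Auto.D36 and 5.35 ± 0.36 in NoRx.F, against 7.35 ± 0.61 in healthy controls, whose arrays ran from 6.04 over 7.33 to 8.39. Healthy controls varied less here than in SOX4, and 22 of 47 transplant arrays fell under their minimum. The lowest array, at 3.74 in Auto.D36, lay below the filter value of 4.65. At the upper end FR104.Siro.D14 averaged 7.20 ± 0.46 and Tac.Mtx.D14 6.99 ± 0.34, both within the healthy range.

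AUTS2 averaged 7.44 ± 0.48 in Siro.F, 7.47 ± 0.29 in NoRx.F, 7.88 ± 0.49 in Auto.D14 and 7.87 ± 1.11 in Auto.D36, against 9.92 ± 0.64 in healthy controls. Every one of these 14 arrays but the Auto.D36 array at 8.67 lay below the lowest healthy value of 8.54. The FR104, FR104-Siro and Tac.Mtx.D14 groups averaged between 9.35 and 9.80, and each of their arrays stood inside the healthy range of 8.54 to 11.04. In all, 16 of the 47 transplant arrays were under the healthy minimum: 13 of these 14 and 1 each of Tac.Mtx.F, Bela.Siro.D30 and Bela.Siro.F.

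SELENOP had another order. FR104.D14 was lowest with 4.44, 3.45 and 3.76, a mean of 3.88 ± 0.51, against 7.44 ± 0.84 in healthy controls, which ran from 5.76 over 7.49 to 9.76. Siro.F did not share the low level: its arrays read 6.87, 7.64, 5.63 and 9.71, a mean of 7.46. Tac.Mtx.D14 averaged 6.86 ± 0.14 and Tac.Mtx.D30 4.53 ± 0.19. With 25 arrays under the healthy minimum, SELENOP held the most such arrays of the 5 leading probe sets, though SDs within its transplant groups reached 1.80.

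METTL14 ran the other way in autologous recipients in its leading probe set. The leading probe set read 12.06, 13.32 and 13.41 in Auto.D14 and 13.30, 14.09 and 13.67 in Auto.D36, against a healthy mean of 12.09 ± 0.85 with arrays from 10.08 over 12.38 to 13.43. All 3 arrays at day 36 lay above the healthy mean, 2 of them above the healthy maximum. The lowest groups were FR104.Siro.F, with 8.31, 8.39, 9.60 and 9.42, and NoRx.F, with 8.74, 8.06, 7.55 and 11.72. NoRx.F replicate 53 thus lay above the other 3, and Siro.F replicate 13, at 7.17, lay below 9.57, 11.77 and 10.23. Neither value of the leading probe set is flagged below as far from the rest of its group. Siro.F replicate 13 is flagged there in another METTL14 probe set. Tac-Mtx groups stayed near the controls, between 11.55 and 12.17. The other METTL14 probe sets averaged 8.32 and 7.87 in Auto.D36, against 8.14 and 7.98 in healthy controls, and no transplant group departed from the healthy mean by as much as 1 in either.

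**Figure D1:**
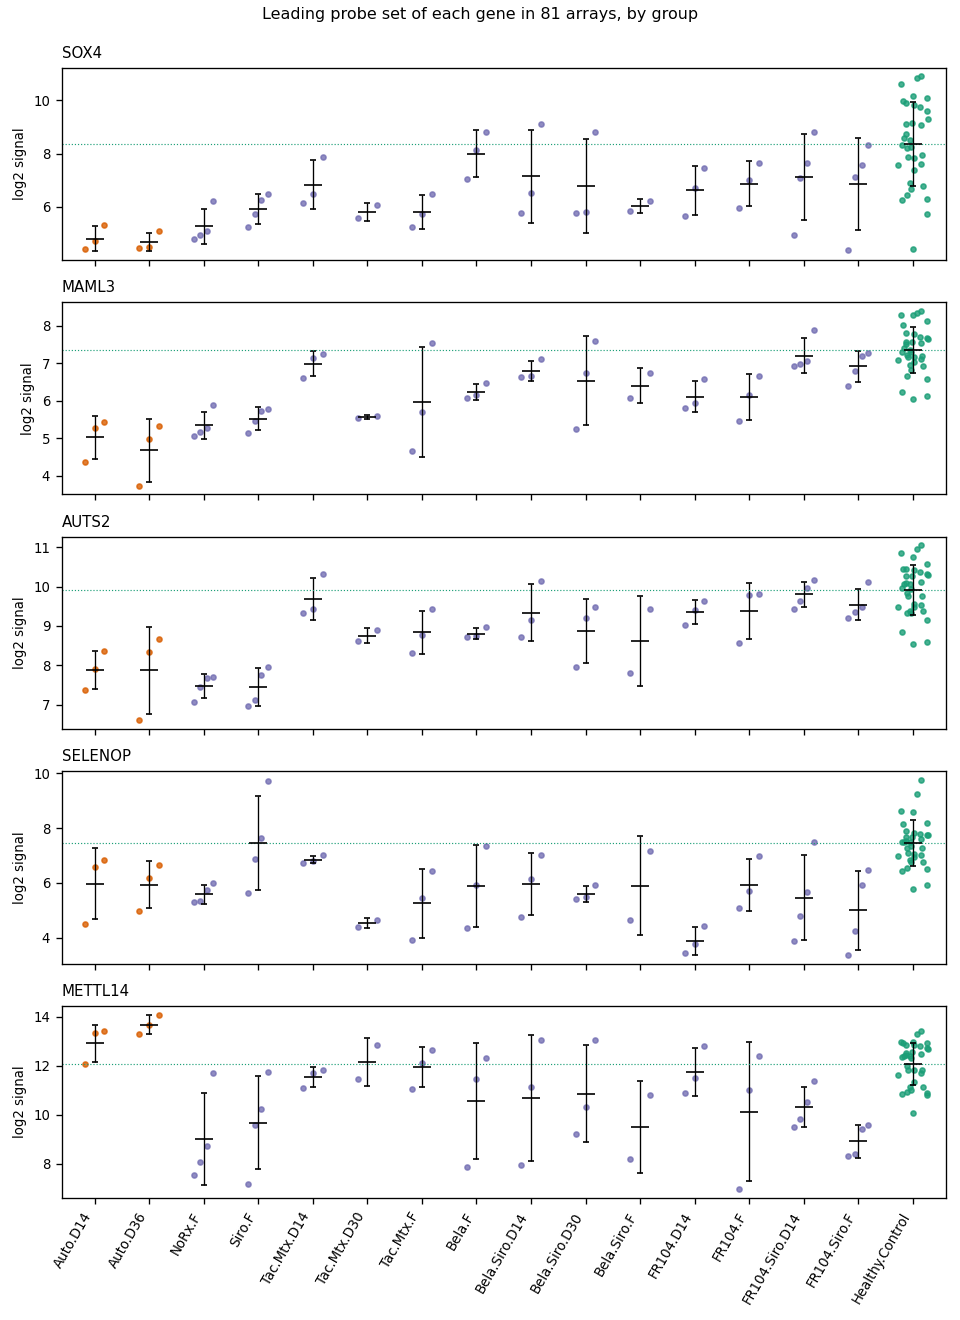
Log2 signal of the leading probe set of each gene (vertical axes) in the 81 arrays by group (horizontal axis; autologous orange, allogeneic purple, healthy green). Bars are mean ± SD, the dotted line is the healthy mean; SOX4, MAML3 and AUTS2 are low in Auto.D14, Auto.D36 and NoRx.F, whereas METTL14 is high in Auto.D14 (12.93) and Auto.D36 (13.69) and low in NoRx.F (9.02).

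**Figure D2:**
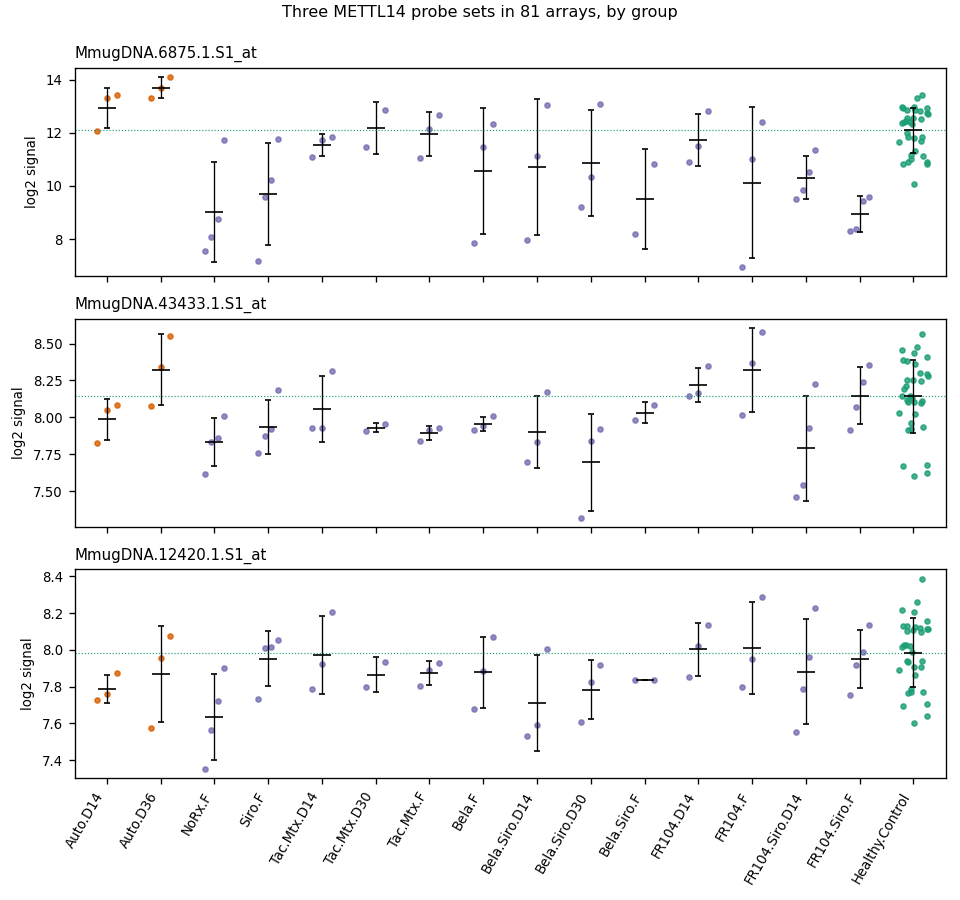
Log2 signal of the 3 METTL14 probe sets (vertical axes, scales differ) by group, drawn as mean ± SD over single arrays. The leading probe set spans 6.96 to 14.09, the others 7.32 to 8.58 and 7.35 to 8.39.

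Ordered by mean level, the 16 groups formed a gradient without clear steps. Of the 15 pairs of neighbours in that order, the gap was larger than both groups' SDs in 0 pairs for SOX4, MAML3 and AUTS2. It was larger in 1 pair for SELENOP (Tac.Mtx.D30 over FR104.D14, by 0.65) and in 1 for METTL14 (Auto.D36 over Auto.D14, by 0.76). Arrays of neighbouring groups overlapped in every such pair of all 5 leading probe sets.

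In 11 animals a healthy array of the same animal could be set beside 17 transplant arrays. SOX4 was lower after transplant than in the animal's own healthy array in 16 of 17, with a median difference of -2.19, and MAML3, AUTS2 and SELENOP were lower in 15 of 17 each, with medians of -1.80, -1.31 and -1.85. The exception for SOX4 was Siro.F replicate 13, at 6.50 against 6.45. Both exceptions for AUTS2 were arrays of FR104-Siro animal 28, at 9.96 and 10.12, against 9.76 in its healthy array. Those for MAML3 were the day 14 array of the same animal, higher by 0.53, and Bela.Siro.D30 replicate 49, higher by 0.03. SELENOP exceeded the own healthy array in Siro.F replicates 16 and 18, by 0.67 and 2.65. The leading METTL14 probe set was lower in 8 of 17 and higher in all 6 autologous arrays, by 0.37 to 1.61. It was lower by 5.67 in Siro.F replicate 13 and by 4.17 in FR104.F replicate 22. The METTL14 probe set averaging 8.06 was lower in 8 of 17, among them each Auto.D14 array, and that averaging 7.92 in 11 of 17. In the autologous arrays the former differed by -0.16 to 0.46 and the latter by -0.12 to 0.21. These 11 animals count among the healthy controls from which the low levels were read, so the pairs are no independent evidence.

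**Figure D3:**
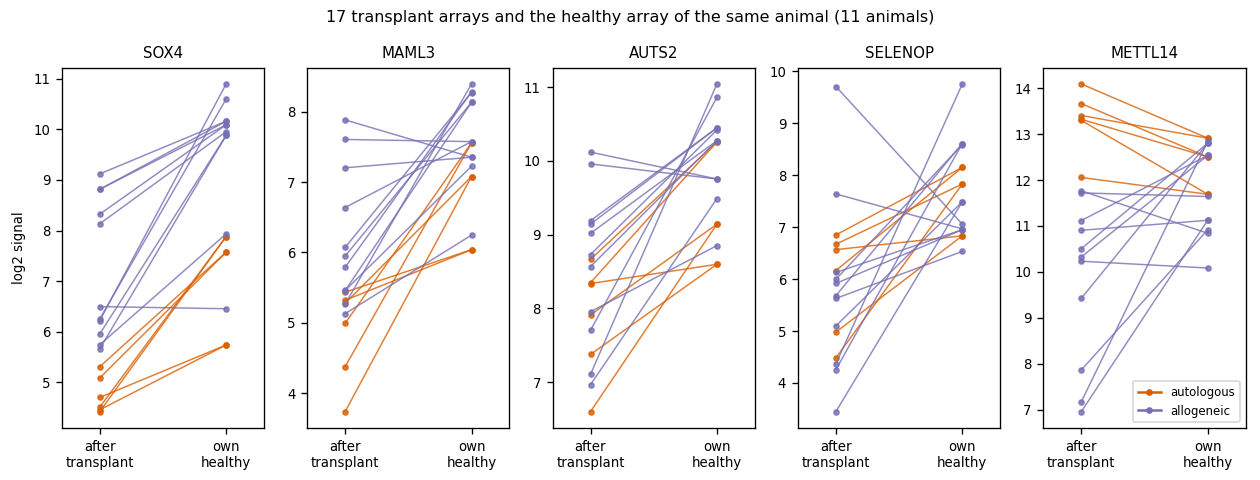
Log2 signal (vertical axes) in 17 transplant arrays (left) and in the healthy array of the same animal (right), joined by lines; orange is autologous, purple allogeneic. By leading probe set, SOX4 is lower after transplant in 16 of 17 pairs, METTL14 in 8 of 17.

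Differences between transplant groups were tested in 25 comparisons with limma, adjusted over 37141 probe sets in each. The groups in which the members are low had been seen when these genes were picked, so a call says where a gene differs, not that this set of genes stands out. That choice can also lower the p-values of the members in advance and raise their share of calls. Of 125 tests of leading probe sets 9 passed an adjusted p of 0.05, in 6 comparisons: 5 of AUTS2, 3 of MAML3 and 1 of METTL14. Over all probe sets and comparisons 2.71% passed. None of the 150 tests of the other member probe sets did, and 0 of 25 passed for SOX4 (3 at an unadjusted p under 0.05) and 0 of 25 for SELENOP (6 at an unadjusted p under 0.05).

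AUTS2 was higher with FR104 and with FR104-Siro than with no prophylaxis at the final sample. FR104.Siro.F read 9.48, 9.21, 9.35 and 10.12, and NoRx.F 7.68, 7.44, 7.07 and 7.70. The fitted difference was 2.08 ± 0.53 (SE), or 4.22-fold (adjusted p = 0.00487), in a comparison that called 11.8% of probe sets. FR104.F, at 8.57, 9.81 and 9.79, exceeded NoRx.F by 1.93 ± 0.56 (adjusted p = 0.0345; 4.17% called). FR104.Siro.F also exceeded Siro.F, which read 7.75, 6.96, 7.95 and 7.10, by 2.11 ± 0.52 (adjusted p = 0.0365; 0.525% called). With the spike-in signal as a covariate the last adjusted p was 0.0562. These groups share no batch. The call against Siro.F was lost on leaving out FR104.Siro.F replicate 27 or 28 or Siro.F replicate 16 or 18 (adjusted p up to 0.157), and that of FR104.F against NoRx.F without FR104.F replicate 23 or 24 or NoRx.F replicate 51 or 52 (up to 0.159).

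MAML3 followed AUTS2 in part. It was higher in FR104.Siro.F, at 6.80, 6.40, 7.28 and 7.20, than in NoRx.F, at 5.18, 5.88, 5.07 and 5.27, by 1.54 ± 0.54 (adjusted p = 0.0495). That call was lost without a filter on low values (adjusted p = 0.0627) and on leaving out any 1 of FR104.Siro.F replicates 27, 28 and 29 or NoRx.F replicates 50, 52 and 53 (adjusted p up to 0.106). Against Siro.F the difference was 1.36 ± 0.53 (adjusted p = 0.249).

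Of the other genes of the Notch pathway, in which MAML3 acts, 3 of the 30 tested were higher and 3 lower in FR104.Siro.F than in NoRx.F, with a median of -0.02 beside -0.01 over all probe sets, of which 11.8% were called. NUMB, an inhibitor of Notch, was higher by 1.40 ± 0.24 (adjusted p = 4e-05), MAML2, a second Mastermind coactivator, by 1.37 ± 0.27 (adjusted p = 2e-04), and RBPJ, their DNA-binding partner, by 1.18 ± 0.25 (adjusted p = 6e-04). DTX1, a Notch target, was lower by 2.17 on the log2 scale (SE 0.47, adjusted p = 8e-04). Of 12 Polycomb partners of AUTS2, 1 was higher and 2 were lower, beside the same 11.8%, with RYBP higher by 0.87 ± 0.15 (adjusted p = 3e-05) and CSNK2B lower by 0.60 on the log2 scale (SE 0.14, adjusted p = 0.0017).

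In FR104.Siro.F against NoRx.F, of 16 SOX and related HMG box factors, the family of SOX4, 2 were higher, where 11.8% of all probe sets were called: TCF7, which keeps T cells naive or stem-like, and TOX (1.18 ± 0.23, adjusted p = 2e-04), known from thymic development and from exhausted T cells. Of 18 selenoprotein and selenium handling genes 1 was lower, MSRB1, which reduces oxidised methionine and is named here after its value was seen. Of 15 m6A genes 1 was higher, the reader YTHDC2 (0.75 ± 0.23, adjusted p = 0.0202). These 3 counts are near or below that share.

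Other T cell genes moved in that comparison too. Of 8 genes of naive and quiescent T cells 5 were higher and 0 lower, beside 11.8% of all probe sets called in either direction, with a median of 0.93, among them TCF7 (1.56) and FOXP1 (1.02). Of 12 cell cycle genes 9 were lower, with a median of -1.76. The mean of the naive genes lay between -0.22 and 0.26 in FR104.Siro.F and between -1.03 and -0.83 in NoRx.F, relative to healthy controls. The part of these shifts in the differences of AUTS2 and MAML3 was not tested.

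In the FR104.Siro.D14 group both genes were higher than in autologous recipients at day 14. MAML3 read 6.97, 6.91, 7.88 and 7.05 in FR104.Siro.D14 and 5.44, 4.38 and 5.28 in Auto.D14, a difference of 2.17 ± 0.47 or 4.51-fold (adjusted p = 0.00187; 10.3% of probe sets called). AUTS2 read 10.16, 9.43, 9.96 and 9.64 in FR104.Siro.D14 and 7.37, 8.35 and 7.91 in Auto.D14, a difference of 1.92 ± 0.46 (adjusted p = 0.00492). Groups did not overlap in either gene, but how many of all probe sets were apart in this way was not counted. Both groups lie wholly in batch 4, so a limma fit of that batch alone must return the same differences and is no further check of their size. With the spread taken from batch 4 alone, adjusted p was 0.0213 and 0.0305. All 4 FR104.Siro.D14 arrays and 1 Auto.D14 array had high spike-in signals. With that signal as a covariate the differences were 2.27 and 1.92, and from the 2 arrays truly taken at day 14 they were 2.40 and 2.18. Of 30 other Notch pathway genes 4 were higher and 0 lower, with a median of 0.09 beside 0.03 over all probe sets, among them MAML2 (0.97 ± 0.23, adjusted p = 0.0045) and NUMB (0.67 ± 0.21, adjusted p = 0.033). Of 8 naive T cell genes 4 were higher, and of 12 cell cycle genes 9 were lower. Of 18 genes of selenium handling 2 were lower, among them SEPHS2, which makes the selenium donor of selenoprotein synthesis (-1.68 ± 0.37, adjusted p = 0.0020), while SELENOP did not pass.

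Taken singly against Auto.D14, the Tac.Mtx.D14, Bela.Siro.D14 and FR104.D14 groups passed for neither gene by limma. Of all probe sets, 33 were called higher and 15 lower in FR104.D14, 2 and 1 in Bela.Siro.D14, and 0 in Tac.Mtx.D14. NoRx.F, a final sample, passed for neither gene against Auto.D14 (1.7% of probe sets called). Averaged over the 4 allogeneic prophylaxis groups at day 14, MAML3 exceeded Auto.D14 by 1.74 ± 0.42 (adjusted p = 0.0317) and AUTS2 by 1.65 ± 0.42 (adjusted p = 0.0439), where 0.568% of probe sets were called. All 13 allogeneic arrays stood above all 3 Auto.D14 arrays in both genes, and the share of all probe sets with such a separation was not counted. For METTL14 0 of the 13 stood above and 11 below all Auto.D14 arrays, and for SELENOP 3 above and 4 below. For SOX4 12 of the 13 stood above, but its smallest adjusted p, for a difference of 2.31 ± 1.04 in FR104.Siro.D14, was 0.139. Leaving out Auto.D14 replicate 202 or 200 ended the MAML3 call (adjusted p = 0.333 and 0.0903), as did Bela.Siro.D14 replicate 42 (0.0565). Leaving out any 1 of the Auto.D14 arrays ended that of AUTS2 (adjusted p up to 0.175), as did each of Bela.Siro.D14 replicate 42, FR104.D14 replicates 23 and 24, FR104.Siro.D14 replicates 26 and 28 and Tac.Mtx.D14 replicate 19. These allogeneic groups other than FR104 and FR104-Siro share no batch with Auto.D14.

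METTL14 differed between the low and the high end of its order. The leading probe set was lower by 4.66 on the log2 scale in NoRx.F than in Auto.D36 (SE 1.17, 25.4-fold, adjusted p = 0.0102; 5.53% of probe sets called). Leaving out 1 array moved it between -5.95, without NoRx.F replicate 53, and -4.21, without NoRx.F replicate 52 (adjusted p up to 0.0394). NoRx.F arrays reached at most 11.72 and Auto.D36 arrays at least 13.30. Against Auto.D14, where 1.7% of probe sets were called, the difference was -3.91 ± 1.17 (adjusted p = 0.0641), which passed with the animal as a replicate block (-3.73, adjusted p = 0.0445) and without NoRx.F replicate 53 (-5.19, adjusted p = 0.0064). The other METTL14 probe sets did not pass there, with differences of -0.54 ± 0.22 (adjusted p = 0.14) and -0.24 ± 0.18 (adjusted p = 0.511). Of the other 15 m6A writers, erasers and readers tested 0 were called in this comparison by limma (4 at an unadjusted p under 0.05), with a median of -0.15. NoRx.F and Auto.D36 share no batch.

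Siro.F and NoRx.F, which both lie in batches 1 and 2, gave opposite values for METTL14: 2.55 in batch 1 (adjusted p = 0.0178) and -3.02 in batch 2 (adjusted p = 0.629), which holds 2 Siro.F arrays and 1 NoRx.F array, beside 0.64 ± 0.91 over both (7.19% of probe sets called). SELENOP was 1.88 ± 0.72 higher in Siro.F over both batches (adjusted p = 0.102) and 1.80 higher in batch 1 alone (adjusted p = 0.0266), beside 1.67 in batch 2 alone (adjusted p = 0.806).

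**Figure D4:**
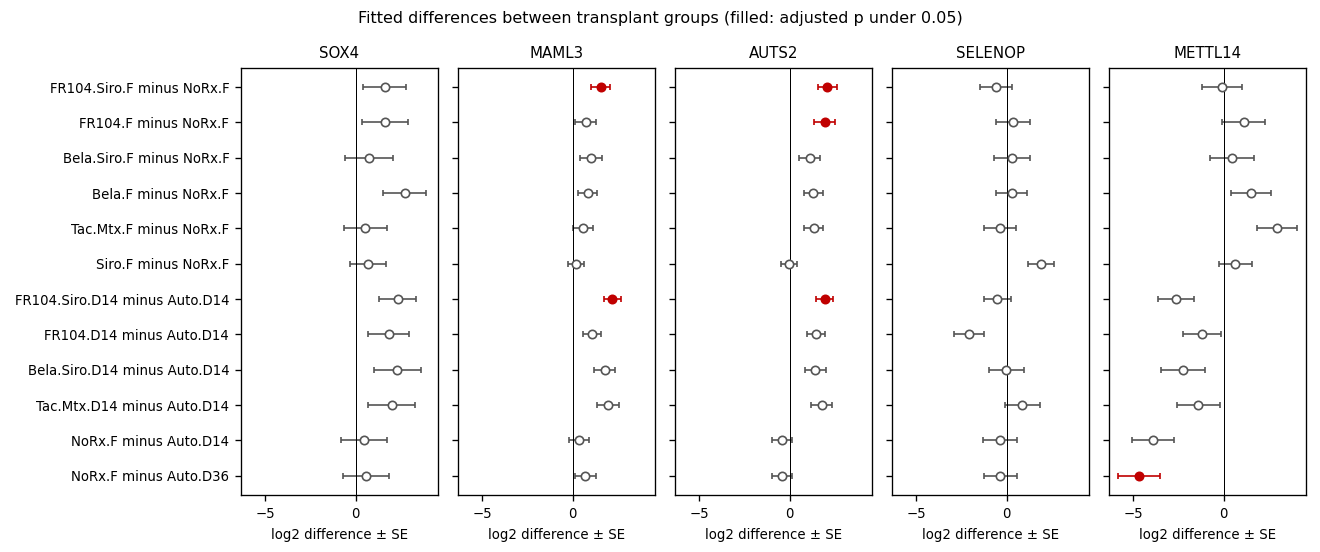
Fitted log2 differences (horizontal axes, ± SE) of the leading probe sets in 12 comparisons between transplant groups (vertical axis; first group minus second). Filled red points passed an adjusted p of 0.05: AUTS2 and MAML3 with FR104-Siro, AUTS2 with FR104, and METTL14 in NoRx.F minus Auto.D36 (-4.66).

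Over time no member passed: 0 of 35 tests of leading probe sets in 7 comparisons of a later with an earlier sample were called by limma (smallest adjusted p 0.387; 4 at an unadjusted p under 0.05). The fit did not pair arrays of the same animal. Of all probe sets, 2.56% were called in the autologous comparison, 2.89% in that of FR104-Siro, 0.00269% and 0.0188% in those of Bela-Siro at day 30 and at the final sample, and 0% in the other 3. Within animals, the leading METTL14 probe set was higher at day 36 than at day 14 in 3 of 3 autologous animals, by 0.76 ± 0.45 (SD). In FR104-Siro it was lower at the final sample than at the first in 4 of 4 animals, with a mean of -1.37 ± 0.30, and in FR104 in 3 of 3, with a mean of -1.61 ± 2.03. The other METTL14 probe sets did not share these falls. In FR104-Siro that averaging 8.06 was lower in 0 of 4 animals (mean 0.36), and that averaging 7.92 in 2 of 4 (mean 0.066). In FR104 they were lower in 1 and 2 of 3 animals, with means of 0.10 and 0.0076. The leading SELENOP probe set was higher at the final sample in 3 of 3 FR104 animals, by 2.05 ± 1.04, from day 14 values below the filter value. It was lower in 3 of 3 Tac-Mtx animals, with a mean of -1.60 ± 1.13. The second SELENOP probe set was lower in 1 of 3 FR104 animals (mean 0.25) and in 3 of 3 Tac-Mtx animals (mean -0.32). None of 30 tests of differences between such effects passed (smallest adjusted p 0.354; 1 at an unadjusted p under 0.05). Of all probe sets these tests called between 0.00269% and 0.0673%, with 0.00538%, 0.0269% and 0.0323% in between.

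Healthy animals gave a view of the genes that does not use their levels after transplant. Among 34 animals, MAML3 and AUTS2 varied together, with r = 0.86 (rho = 0.87; permutation p = 1e-05, the smallest possible, and adjusted p = 4e-04 over 40 relations). It was 0.92, 0.84 and 0.85 within batches 2, 3 and 4, and 0.85 without the 2 arrays farthest from the MAML3 median. SOX4 was related to MAML3 with r = 0.58 (rho = 0.61; permutation p = 2.8e-04, adjusted p = 0.00217) and to AUTS2 with r = 0.58 (rho = 0.65; permutation p = 3.4e-04, adjusted p = 0.00217). These were 0.86 and 0.95 within batch 2 and 0.70 and 0.73 within batch 4, but 0.33 and 0.28 within batch 3. SOX4 and SELENOP had r = 0.43 (rho = 0.41; permutation p = 0.0112, adjusted p = 0.032), with -0.54 within batch 4, so that this relation did not hold in every batch.

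METTL14 ran against SOX4 and MAML3, with r = -0.40 to SOX4 (rho = -0.45; permutation p = 0.0174, adjusted p = 0.041) and -0.42 to MAML3 (rho = -0.44; permutation p = 0.0133, adjusted p = 0.0333), which were -0.086 and -0.69 within batch 3. Its relation with AUTS2 did not pass by r (-0.37, permutation adjusted p = 0.0669) but did by rho (-0.39, permutation adjusted p = 0.048). That with SELENOP passed by neither (r = -0.084, rho = 0.0041, permutation adjusted p = 0.705 and 0.983). Adjusted p-values of relations in healthy animals are those of r unless rho is named. The strongest relation of METTL14 was with the mean of 7 NK cell markers, with r = 0.63 (rho = 0.62, permutation p = 3e-05, adjusted p = 6e-04). It was 0.74, 0.70 and 0.56 within batches 2, 3 and 4. MAML3 and AUTS2 ran against these markers, with r = -0.49 (rho = -0.61; adjusted p = 0.0143) and -0.53 (rho = -0.61; adjusted p = 0.0052), and along with genes of naive T cells, with r = 0.59 (rho = 0.59) and 0.58 (rho = 0.56) at an adjusted p of 0.00217 each (permutation tests). The relations with naive genes were 0.15 and 0.18 within batch 4. SOX4 and AUTS2 ran against the myeloid markers, with r = -0.58 (rho = -0.59; adjusted p = 0.00217) and -0.44 (rho = -0.52; adjusted p = 0.028, permutation tests). With genes of recent thymic emigrants, T cells newly come from the thymus, SOX4 (r = 0.42, rho = 0.45, adjusted p = 0.0327) and AUTS2 (r = 0.43, rho = 0.41, adjusted p = 0.032) had positive relations. METTL14 had a negative one (r = -0.46, rho = -0.44, adjusted p = 0.0221, permutation tests). METTL14 ran against naive genes by r (-0.39, adjusted p = 0.0487) but did not pass by rho (-0.36, adjusted p = 0.0645, permutation tests). Without the 2 arrays farthest from the METTL14 median this r was -0.21. SELENOP ran along with the B cell markers, with r = 0.48 (rho = 0.52; adjusted p = 0.0186, permutation test), with 0.22 to 0.71 within batches. None of 10 relations of the 5 genes to the spike-in signal or to the 3' minus 5' signal of actin passed by permutation (smallest adjusted p 0.352).

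**Figure D5:**
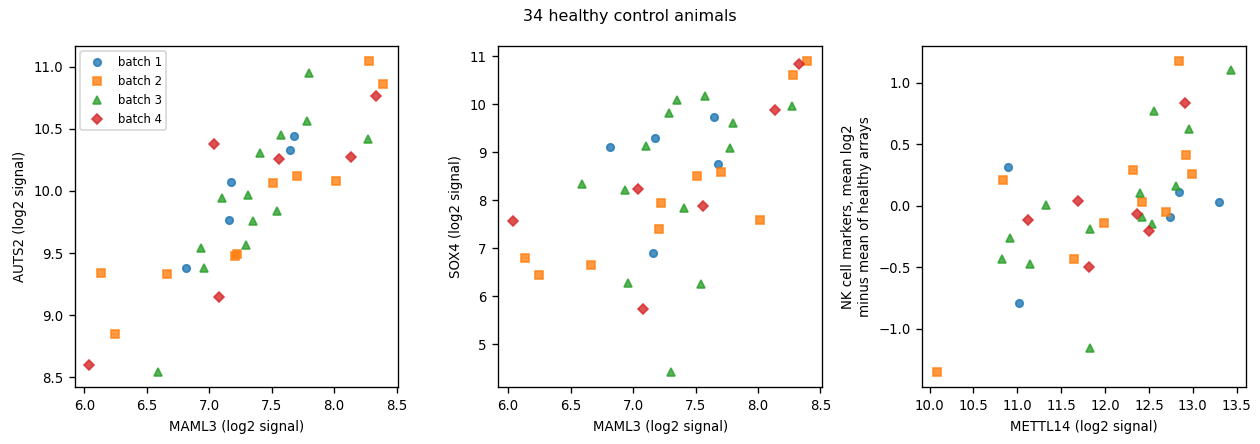
Each point is 1 of 34 healthy animals, marked by batch. Left and middle, log2 signal of AUTS2 and of SOX4 (vertical) against MAML3 (horizontal), r = 0.86 and 0.58; right, the mean of 7 NK cell markers (vertical, log2 relative to the healthy mean) against METTL14 (horizontal, log2 signal), r = 0.63.

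Across the 16 group means, which share batches and sampling days, r was 0.87 for MAML3 and AUTS2, 0.85 for SOX4 and MAML3 and 0.77 for SOX4 and AUTS2, while SELENOP and METTL14 had r between -0.35 and 0.20 with the others. The genes were chosen by these same group levels, so shared low levels raise r in advance and it bears out nothing seen in healthy animals. Among 10948 other named genes, those with group means most like a member were found by Pearson's r. For MAML3 these were IRS2 (0.97), an adaptor of insulin and cytokine receptors, RASGRF2 (0.94), GLS2, FBL and DIP2C (0.92 each). For AUTS2 they were FZD10 and MARCHF3 (0.94 each), WDSUB1, DYRK2 and GLCE. For SOX4 they were LTBP2, RPIA, SFMBT1 and SBF2 (0.88 each) and USP53. SELENOP had looser matches, with MS4A7 (0.77), NT5C3A, MCM3AP, JAML and CSF1R (0.71), of which MS4A7 and CSF1R are known from macrophages. With the mean of the myeloid markers SELENOP had r = 0.027 in healthy animals (rho = 0.022, adjusted p = 0.882, permutation test). That mean stood above healthy in all 15 transplant groups while SELENOP averaged below in 14, but its markers did not all move together. In FR104.D14, where SELENOP was lowest, S100A8 averaged 10.88 against 6.84 in healthy controls, while CD14 averaged 6.08 against 6.46. The part of myeloid cells in the SELENOP signal was not tested.

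METTL14's leading probe set was closest to S1PR5 (0.94), a sphingosine 1-phosphate receptor of NK cells and cytotoxic T cells, followed by IGFLR1, OXSR1, L3MBTL3 and PRKACB. S1PR5 averaged 9.35 ± 0.39 in Auto.D36, 6.43 ± 0.95 in NoRx.F and 5.57 ± 0.51 in FR104.Siro.F, against 7.96 ± 0.69 in healthy controls. Between single arrays, again as a description, r was 0.89 over the 34 healthy and 0.92 over the 47 transplant arrays. KLRF1, an activating receptor of NK cells, had r = 0.75 and 0.86 with the leading probe set, and averaged 9.81 in Auto.D36, 6.66 in NoRx.F and 6.79 in FR104.Siro.F, against 9.41 in healthy controls. For the other METTL14 probe sets r over the 34 healthy and the 47 transplant arrays lay between -0.044 and 0.16 with KLRF1 and between 0.032 and 0.36 with S1PR5. In FR104.Siro.F, NoRx.F and Auto.D36 the mean of the 7 NK cell markers lay at -1.30 to -0.50, -1.10 to -0.31 and -0.87 to 0.56, against -1.35 to 1.18 in healthy controls, and 0 of the 7 were called by limma in NoRx.F against Auto.D36 (1 at an unadjusted p under 0.05). The part of NK cell or cytotoxic T cell content in the METTL14 signal was not tested.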

How the data were processed

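RNA of sorted CD3 T cells was labelled by the Affymetrix 3' IVT Plus protocol, per the labels' protocols. The authors deposited log2 signals per probe set, made with RMA in affy, per the submitters' processing notes, which give no versions. Healthy controls had nearly equal means in all batches: comparing batches by an F test, 61.1% of probe sets had p above 0.95 (chance gives 5%). Values adjusted for batch before deposit would give this, but no such step is given in the sources used here. If it was made, spreads are understated. The members, gene lists and tests were chosen with earlier results of these data known.

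Of 52766 probe sets without controls, 37141 had a signal over 4.65, the 40th percentile of the table, on 2 arrays or more. They were tested on the deposited log2 values with limma 3.58.1 and statmod 1.5.0 in R 4.3.3. One fit of all 81 arrays held group and batch (62 residual degrees of freedom, eBayes with trend). Tests are 2-sided, with Benjamini-Hochberg adjusted p within a comparison. Relations in healthy animals used 100000 permutations (numpy, scipy 1.17.1). Replicate numbers are animal numbers, so arrays with the same number come from the same animal; as a random block the animal had a correlation of 0.159. All member probe sets are described, with up to 4 genes of each list (smallest adjusted p in any comparison between transplant groups), defining markers, and the 5 genes most like each member. Genes were named from the platform's gene table, which gave 24956 probe sets 1 gene. On simulated data with 37141 probe sets, 83 of 100 changes of log2 1 and 95 of 100 of log2 2 were found for FR104.Siro.F against NoRx.F, with 12 of 190 calls false, 80 and 96 for FR104.Siro.D14 against Auto.D14 with 8 of 184 false, and 61 and 88 for NoRx.F against Auto.D36 with 4 of 153 false. The share found among probe sets as variable as those of the members was not tested. Member SEs were 0.53 for AUTS2 in FR104.Siro.F against NoRx.F and 1.17 for METTL14 in NoRx.F against Auto.D36. Arrays give no read depth, and their number limits the precision. The limma p-values rest on the spread between arrays, taken as independent, though some animals gave several arrays. Alternatives are listed in the closing section.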

Additional observations from a re-analysis of the deposited data

Results flagged for a closer look

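In groups of 4 arrays, 4 of 48 tests of a member probe set had 1 array far from the other 3, a pattern that chance gives in about 1 in 20. They were the leading MAML3 probe set at 7.88 in FR104.Siro.D14 replicate 28 (highest), the second MAML3 probe set at 4.82 in Siro.F replicate 17 (lowest), a SOX4 probe set, not the leading one, at 4.84 in Siro.F replicate 17 (lowest), and a METTL14 probe set, not the leading one, at 7.73 in Siro.F replicate 13 (lowest).

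The leading METTL14 probe set stood above the healthy mean in every Auto.D36 array and below it in every array of 6 other groups. The distance between Auto.D36 and these was 4.75 for FR104.Siro.F, 4.67 for NoRx.F, 4.18 for Bela.Siro.F, 4.00 for Siro.F, 3.38 for FR104.Siro.D14 and 2.13 for Tac.Mtx.D14. Only that to NoRx.F was tested (limma, adjusted p = 0.0102); the others were not tested.

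Within animals, the leading METTL14 probe set was higher at the later sample in every autologous animal and lower in every FR104 and FR104-Siro animal. The difference was 2.37 to FR104 and 2.13 to FR104-Siro on the log2 scale. In the fit neither difference passed (0 of 30 such tests called). The METTL14 probe set averaging 8.06 was lower later in 0 of 4 FR104-Siro animals, and that averaging 7.92 in 2 of 4. The leading probe sets of SELENOP and SOX4 were higher at the later sample in every FR104 animal and lower in every Tac-Mtx animal. These differences, of 3.65 and 1.27, were not tested. In FR104 the SOX4 probe set averaging 6.44 was lower later in 3 of 3 animals (mean -0.064), and that averaging 5.98 in 1 of 3. The second SELENOP probe set was also lower later in 1 of 3.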

How the results depend on the processing

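The alternatives left out the batch term, took the animal as a replicate block, dropped the filter, kept 1 probe set a gene, repeated quantile normalization, fitted the compared groups and controls alone or single batches alone, took FR104.Siro.D14 from day 14 only, ran eBayes without trend, left out each transplant array in turn and, added after seeing the data, the actin 3' minus 5' and spike-in signals as covariates. Of 136 results and their alternatives, 2131 values kept their side of the threshold. Results nearer to 0 than 1 SE were read as having no direction. The 2131 values include 87, in 39 such results, that changed sign. The promoter motif search was not run, since it needs sequences that were not used here. Groups in separate batches limit every call against NoRx.F, and groups of 2 to 4 arrays limit the precision.

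Calls lost: without a filter, MAML3 in FR104.Siro.F minus NoRx.F (1.54) and AUTS2 in the mean of allogeneic day 14 groups minus Auto.D14 (1.65); with spike-in as covariate, AUTS2 in FR104.Siro.F minus Siro.F (2.10). Calls gained: without batch, METTL14 in NoRx.F minus Auto.D14 (-3.91) and Tac.Mtx.F minus NoRx.F (2.93), AUTS2 in Tac.Mtx.F minus NoRx.F (1.36), MAML3 (1.39) and SELENOP (-2.46) in FR104.Siro.F minus Siro.F, and MAML3 in Tac.Mtx.D14 minus Auto.D14 (1.96); with the animal as replicate block, METTL14 in NoRx.F minus Auto.D14 (-3.73), while the block changed no other call; with 1 probe set a gene, the same (-3.91); with only the groups compared, the same (-3.70), METTL14 in Tac.Mtx.F minus NoRx.F (2.71) and in FR104.Siro.D14 minus Auto.D14 (-2.62, also in batch 4 alone); with actin as covariate, the last (-2.80); in batch 1 alone, SELENOP (1.80) and METTL14 (2.55) in Siro.F minus NoRx.F. The cause was not tested.

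Leaving out 1 array each, AUTS2 ranged from 1.72 to 2.34 in FR104.F minus NoRx.F, 1.91 to 2.30 in FR104.Siro.F minus Siro.F and 1.39 to 1.88 in the mean of allogeneic day 14 groups minus Auto.D14, and MAML3 from 1.42 to 1.71 in FR104.Siro.F minus NoRx.F and 1.41 to 1.94 in the day 14 mean, with calls lost in each. The call of AUTS2 in FR104.F minus NoRx.F was lost without FR104.F replicate 23 or 24 or NoRx.F replicate 51 or 52, and that in FR104.Siro.F minus Siro.F without FR104.Siro.F replicate 27 or 28 or Siro.F replicate 16 or 18. Calls were gained in METTL14 in NoRx.F minus Auto.D14 (-5.19 to -3.46) and Tac.Mtx.F minus NoRx.F (2.47 to 4.21), both without NoRx.F replicate 53, and in SELENOP in Siro.F minus NoRx.F (1.15 to 2.47) without Siro.F replicate 13. Signs turned, with no call, in MAML3 in Tac.Mtx.F minus NoRx.F (-0.22 to 1.22), AUTS2 (-1.53 to 0.082) and METTL14 (-2.57 to 0.13) in Bela.Siro.F minus Bela.Siro.D14.

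Among healthy animals, relations that no longer passed within a batch were SOX4 with MAML3 (0.33 in batch 3, 0.70 in batch 4), with AUTS2 (0.28, 0.73), with SELENOP (0.44 in batch 2, 0.68 in batch 3, turned to -0.54 in batch 4) and with METTL14 (-0.72, -0.086, -0.73 in batches 2, 3 and 4), MAML3 with AUTS2 (0.85 in batch 4) and with METTL14 (-0.63, -0.69, -0.27), where 6 to 13 animals remained. Of the relations with marker means, METTL14 with NK cell, MAML3 with NK cell, SELENOP with B cell, and SOX4 and AUTS2 with myeloid markers passed in no batch alone, nor did SOX4 and METTL14 with genes of recent thymic emigrants; MAML3 and AUTS2 with naive genes, AUTS2 with NK cell markers and AUTS2 with genes of recent thymic emigrants passed in batch 2 alone, and METTL14 with naive genes in batch 3 alone.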
